A study of Caenorhabditis elegans with 2 samples.

Results

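Genes of membrane traffic, the protein machinery that moves vesicles between the endoplasmic reticulum (ER), the Golgi, endosomes, lysosomes and the cell surface, were examined for binding by the transcription factor EFL-1 in *Caenorhabditis elegans*. They were the 92 protein-coding genes of the Ensembl annotation whose symbol begins with rab, arf, arl, vps, sec, snx or one of copa, copb, copd, cope and copz, followed by a hyphen and a number, out of 19985 protein-coding genes. The choice used symbols and no measured value, but it was made with earlier results of these data known. By class there were 31 vps, 20 rab, 19 sec, 9 arf and arl, 7 snx and 6 cop genes.

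The assay was ChIP-seq, in which DNA fragments that come down with a protein are sequenced and regions with many fragments are called as peaks. Both samples, biological replicates 1 and 2, were whole young adult worms of pooled sexes and unknown age, and they formed the 1 group of the series. They were of strain YL445, in which the unc119(ed3) mutation on chromosome III is accompanied by the transgene vrIs81, which carries EFL-1 fused to GFP and FLAG under the *pie-1* promoter, the *efl-1* 3′ UTR and *unc-119*(+). The *pie-1* promoter is known for expression in the germline, the labels name both efl-1 and the eGFP fusion as the target, and no control worms were analysed here. With whole worms, a peak present in few cells and a weaker peak present in many cannot be told apart.

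EFL-1 is a worm E2F protein, and E2F proteins bind short GC-rich cores in promoters together with a DP partner. Membrane traffic is best known in the worm germline from oocytes, which take up yolk by endocytosis, add membrane as they grow and release eggshell material by exocytosis after fertilization. Rab, Arf and Arl proteins are small GTPases that mark membranes. The cop genes and several sec genes encode vesicle coats, and most vps genes encode the complexes that sort, tether and fuse membranes on the way to the lysosome.

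The promoter window of a gene ran from 1000 bp before to 200 bp past each annotated transcript start, and a gene with a peak summit of the authors' optimal list inside it counted as bound. By the deposited description, that list keeps pooled regions that passed a reproducibility threshold, and it equalled the 2498 pooled regions of highest signal. Of the 92 membrane traffic genes, 30 were bound (32.6%, 95% Wilson interval 23.9 to 42.7), beside 12.6% of all protein-coding genes (2513 of 19985). No test was made of this difference. The strongest peaks lay at *sec-61.G*, *rab-18*, *rab-5*, *vps-22* and *vps-51*, with signal values between 333 and 644, and each of these 5 peaks also lay in the promoter window of another gene. The vps genes of the ESCRT machinery, which buds vesicles into the endosome, were bound in 7 of 11 cases, and the Rab genes in 5 of 20. ESCRT genes of other symbols are counted separately, in the last lists.

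At 6 of the 30 bound genes an E2F core was found no more than 50 bp away from the peak summit, namely *sec-61.G*, *rab-18*, *rab-5*, *sec-24.2*, *vps-60* and *snx-13*. The search covered TTCCCGC and TTCGCGC, and also TTGCCGC and TTGGCGC, on both strands. The bases around the core nearest the summit are shown for 5 of these genes, since these are members at which the peak and the known binding sequence coincide. They come from the RefSeq copy of WBcel235 (ce11), read 5′ to 3′ on the strand that carries the core, which is in capitals.
*sec-61.G*, chrV:10897392-10897421, minus strand: tcttatttgaaTTGCCGCcaatggcaatgc
*rab-18*, chrIII:1080773-1080802, minus strand: acaaatccattTTCGCGCcatcgggtctca
*sec-24.2*, chrIV:12361000-12361029, minus strand: tatgctggtttTTCGCGCaaaaaaaattag
*vps-60*, chrV:8606488-8606517, plus strand: gtgcgtcgcggTTCGCGCgcgtctcccgtt
*snx-13*, chrIV:17087637-17087666, plus strand: tcatgaggcccTTCCCGCaaacgcgcccca

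TTCGCGC occurred at *rab-18*, *sec-24.2* and *vps-60*, and also at *rab-5*, which lies on chromosome I and is not shown. *sec-61.G* carried TTGCCGC and *snx-13* TTCCCGC. The centre of the core lay at the summit itself in *sec-24.2*, which had 2 cores near its summit, and from 8 to 25 bp from the summit in the others. The share of bound membrane traffic genes with a core (6 of 30, 95% interval 9.51% to 37.3%) stood beside 30.6% of all bound genes (770 of 2513) and 30.7% of all optimal peaks (768 of 2498), while 4.10% of windows of the same length placed 500 bp to either side of the summits held one (205 of 4996). The other 24 bound genes had none of these letters in that window, *vps-22* and *vps-51* included.

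The genes of protein entry into the ER held the highest peak of all the members. *sec-61.G* (WBGene00001303) encodes the gamma subunit of the Sec61 channel, through which new secretory proteins enter the ER. Its peak lay on chromosome V at 10897228 to 10897559 in intergenic DNA, with the summit at -241 bp from the 5′ end. The authors' signal value was 644 in the optimal list, where it ranked 53 of 2498, and it was 181 in replicate 1 and 462 in replicate 2. Both replicates placed it near the top of their own lists of 30000 regions, at rank 42 in replicate 1 and 55 in replicate 2. The summit was also in the window of *F32D8.13*, at -841 bp on the same strand, with *sec-61.G* lying between that gene and the summit. The scale of the signal value is not stated, so ranks are used to set replicates side by side.

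The other subunits of the channel were bound too, with weaker peaks. *sec-61.B*, for the beta subunit, had a signal of 132 (29.6 in replicate 1 and 113 in replicate 2), with the summit at -495 bp. That summit lay closer to *trap-3*, at -275 bp, a gene for a subunit of the translocon-associated protein complex. *sec-61.A*, for the alpha subunit that forms the pore, had a signal of 55.5 with the summit 73 bp inside the transcript, in an untranslated or other exon, and the ribosomal protein gene *rps-18* shared it at -488 bp. *sec-11*, which encodes the catalytic subunit of signal peptidase, was not bound and had a pooled region of rank 28320 that neither replicate's list held.

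The COPII coat carries cargo out of the ER. Its genes and those of ER exit sites, counted together, were bound in 3 of 7 cases in the symbol set. The 3 included both cargo adaptors. *sec-24.2* had a signal of 180 (58.6 in replicate 1 and 121 in replicate 2) on chromosome IV at 12360922 to 12361133, with the summit at -223 bp. Its paralogue *sec-24.1* had 70.9 (21.4 and 52.3 in replicates 1 and 2) at -171 bp, in a window that no other gene shared. *sec-12*, for the exchange factor that starts coat assembly by loading SAR-1, had 112 (28.6 and 89.9 in replicates 1 and 2) at -154 bp. Both adaptor genes and *sec-12* thus had summits close to their 5′ ends in both replicates. The inner coat gene *sec-23*, the outer coat gene *sec-31* and the scaffold genes *sec-16A.1* and *sec-16A.2* were not bound. All 4 had summits in the pooled list, at ranks from 4554 to 23070. Among coat genes of other symbols, counted in the last lists, *sar-1* was bound with 78.3 at -393 bp. *npp-20* was not bound and had a pooled rank of 3064.

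The COPI coat returns material from the Golgi to the ER, and 2 of its 6 genes in the symbol set were bound. *copd-1*, for the delta subunit, had a signal of 147 (47.1 in replicate 1 and 95.4 in replicate 2), with the summit at -525 bp in intergenic DNA shared with no other gene. *copz-1*, for the zeta subunit, had 59.7 (18.8 and 39.9 in replicates 1 and 2) at -99 bp and shared its peak with the cyclophilin gene *cyn-4* at -169 bp. Among the unbound subunits, *copb-2* and *copa-1* ranked 3041 and 3630 in the pooled list. *copb-1* ranked 16366, and *cope-1* had no summit in any list. *copb-2* ranked 2303 in replicate 2 and 15826 in replicate 1, so it was within the 2498 highest regions of replicate 2 alone. The SNARE genes *sec-20* and *sec-22*, which serve fusion between the ER and the Golgi, were not bound.

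**Figure D1:**
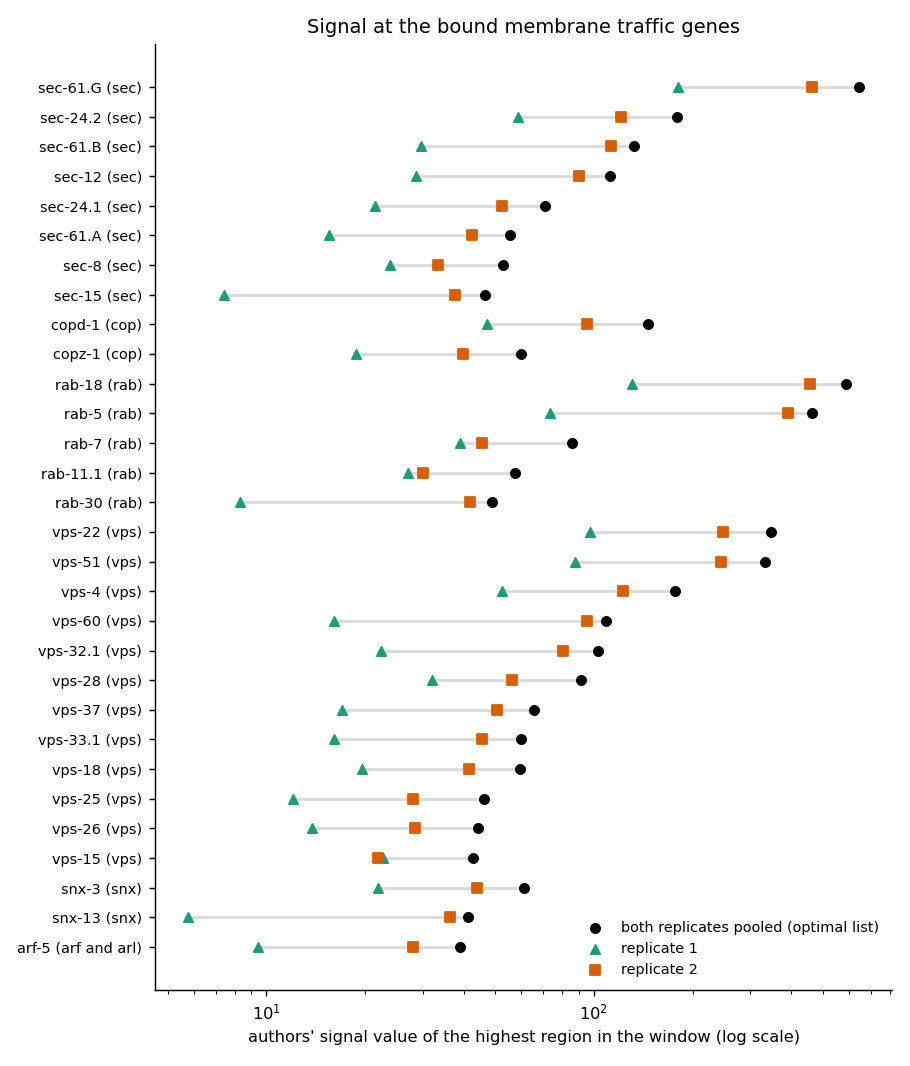
The authors' signal value of the highest region in the promoter window, on a log scale, for the 30 bound membrane traffic genes. Circles are the optimal list, made from both replicates, triangles replicate 1 and squares replicate 2. *sec-61.G*, *rab-18* and *rab-5* stand at the right, and replicate 1 lies furthest to the left for *snx-13*, at 5.78.

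Among the Rab genes, 5 of 20 were bound, and in 3 of them another gene lay nearer to the summit. *rab-18* (WBGene00004277), whose product acts at the ER and lipid droplets, had the second highest peak of the members, on chromosome III at 1080594 to 1080901. Its signal was 586 in the optimal list, 131 in replicate 1 and 455 in replicate 2, with ranks of 87 and 57 in the replicates. The summit lay 8 bp inside the transcript. It was also at -134 bp from *kbp-4*, a kinetochore gene, and at -634 bp from *par-2*, which encodes a polarity protein of the embryo.

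*rab-5* (WBGene00004268) encodes the Rab of early endosomes, which receive yolk in the oocyte. Its peak on chromosome I at 9307484 to 9307790 had a signal of 463, with 73.3 and rank 258 in replicate 1 and 390 and rank 83 in replicate 2. The summit lay at -796 bp from *rab-5* and at -802 bp from *nmat-2*, a gene of NAD synthesis on the other strand, so it was about equally far from both. *rab-7*, the late endosome Rab, had 85.4 (39.1 in replicate 1 and 45.5 in replicate 2), also at -796 bp. *W03C9.5*, at -183 bp, was nearer, and *mex-1* shared the window at -910 bp.

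The remaining bound Rab genes had low signals and far summits. *rab-11.1*, for recycling endosomes, had 57.2 (27.0 and 30.1 in replicates 1 and 2) at -673 bp, where the ribosomal protein gene *rpl-7* lay nearer, at -308 bp. *rab-30*, a Golgi Rab, had 48.9 (8.30 in replicate 1 and 41.9 in replicate 2) at -924 bp from the nearer of its 2 annotated 5′ ends. This was the largest distance among the 30 bound genes, and *Y45F3A.1* lay nearer at -187 bp. The summit, at 10562102, lay in an intron and inside the annotated *rab-30* gene (10560596 to 10565603). *rab-30* ranked 5324 in replicate 1 against 1561 in replicate 2. The unbound Rab genes were *rab-1*, *rab-3*, *rab-6.1*, *rab-6.2*, *rab-8*, *rab-10*, *rab-11.2*, *rab-14*, *rab-19*, *rab-21*, *rab-28*, *rab-33*, *rab-35*, *rab-37* and *rab-39*. Of these, *rab-1*, which serves transport from the ER to the Golgi, came nearest, with a pooled signal of 31.8 at rank 2774 and rank 1992 in replicate 1 against 3909 in replicate 2. *rab-3*, the Rab of synaptic vesicles, had no pooled summit.

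The vps genes were bound in 12 of 31 cases, 7 of them in the ESCRT machinery. Both ESCRT-I genes in the set, 2 of 3 ESCRT-II genes and 3 of 6 genes of ESCRT-III and its ATPase VPS-4 were bound, and all 11 had a summit in the pooled list. *vps-22* (WBGene00016167), for an ESCRT-II subunit, had the highest signal of the class, 347 (97.1 in replicate 1 and 248 in replicate 2), on chromosome III at 4962995 to 4963239. Its summit lay at -614 bp and only -63 bp from *C27F2.9*, which starts on the same strand between the summit and *vps-22*. *vps-4*, for the ATPase that takes ESCRT-III filaments apart, had 177 (52.3 and 123 in replicates 1 and 2) at -238 bp, shared with no other gene.

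Other ESCRT genes had lower signals. *vps-60*, for an ESCRT-III relative, had 108.5 (16.1 in replicate 1 and 95.3 in replicate 2) at -349 bp, on chromosome V at 8606460 to 8606549. *vps-32.1*, for the main filament subunit, had 103 (22.4 and 80.6 in replicates 1 and 2) at -648 bp, with *icd-1* nearer at -405 bp. Ranks for *vps-60* differed between the replicates, 1643 in replicate 1 and 686 in replicate 2. The ESCRT-I genes *vps-28* and *vps-37* had 91.3 and 65.5 at -157 and -178 bp, both unshared, and the ESCRT-II gene *vps-25* had 46.2 at -12 bp. *vps-36*, *vps-2*, *vps-20* and *vps-24* were unbound, with pooled ranks of 10368, 4867, 3933 and 4273.

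Tethers and fusion factors of the endosome and lysosome form the next group. Of 8 genes of the HOPS and CORVET complexes, which bring late and early endosomal membranes together, 2 were bound. *vps-33.1* had a signal of 59.99 at -184 bp. *vps-18* had 59.4 at -665 bp, with *T12C9.7* nearer at -61 bp. *vps-8*, *vps-11*, *vps-16*, *vps-33.2*, *vps-39* and *vps-41* were unbound, and of these *vps-41* had no summit in any list. In the GARP and EARP tethers, which receive carriers from endosomes, *vps-51* of 5 genes was bound, while *vps-50*, *vps-52*, *vps-53* and *vps-54* were not. Beside these counts, 12.6% of all protein-coding genes were bound.

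The peak of *vps-51* (WBGene00015176) was the fifth highest of the members and lay between divergent genes. It had a signal of 333 on chromosome I at 5807369 to 5807708, with 87.7 and rank 205 in replicate 1 and 244 and rank 192 in replicate 2. The summit lay at -250 bp from *vps-51* and at -168 bp from *lin-35*, the retinoblastoma homologue. In the retromer, which retrieves receptors from endosomes, *vps-26* was bound with 44.4 at 54 bp inside the transcript, in a coding exon, and *vps-29* and *vps-35* were not. *vps-15*, for the regulatory subunit of the lipid kinase VPS-34, had 42.8 at -451 bp, with *hmg-12* nearer at -210 bp. It ranked 1174 in replicate 1 and 2987 in replicate 2, and *vps-34* itself had no summit in any list. *vps-13* and *vps-45* were also unbound.

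Exocyst genes, which tether secretory vesicles at the cell surface, were bound in 2 of 6 cases in the symbol set, and weakly. *sec-8* had 2 summits in its window, with signals of 52.9 at -767 bp and 36.6 at -333 bp, and was the only member with more than 1. *Y106G6H.6* lay nearer to both, with the stronger summit 153 bp inside its transcript and the weaker one at -281 bp. *sec-15* had 46.4 at -372 bp, with *C28G1.2* nearer at 71 bp inside its own transcript. *sec-15* was the single bound gene of the 12 members on chromosome X, and its ranks were 7156 in replicate 1 and 1723 in replicate 2. *sec-3*, *sec-5*, *sec-6* and *sec-10* were unbound. So were the exocyst genes of other symbols, *exoc-7* and *exoc-8*, which are counted with the other tethers in the last lists.

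Sorting nexins bind endosomal lipids, and 2 of 7 were bound. *snx-3*, a retromer partner, had 61.2 (21.9 in replicate 1 and 44.0 in replicate 2) at -328 bp, where the recombination gene *rad-54.L* shared the peak at -348 bp. *snx-13* had 41.3 (5.78 in replicate 1 and 36.4 in replicate 2) at -221 bp, shared with the splicing gene *snr-1* at -390 bp, and ranked 13204 in replicate 1 against 1786 in replicate 2, the widest gap of any bound member. *snx-1*, *snx-6*, *snx-14*, *snx-17* and *snx-27* were unbound. Of the Arf and Arl genes, *arf-5* alone was bound, 1 of 9, with 38.9 (9.45 in replicate 1 and 27.99 in replicate 2) at -292 bp in unshared intergenic DNA. It was the lowest bound member. *arf-1*, *arf-6*, *arl-1*, *arl-3*, *arl-5*, *arl-6*, *arl-8* and *arl-13* were unbound, including the cilium genes *arl-3*, *arl-6* and *arl-13*.

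Set side by side, the classes had overlapping intervals. The sec genes were bound in 42.1% of cases (8 of 19, interval 23.1 to 63.7) and the vps genes in 38.7% (12 of 31, 23.7 to 56.2). The cop and snx genes followed with 33.3% (2 of 6, 9.68 to 70.0) and 28.6% (2 of 7, 8.22 to 64.1). Rab genes were bound in 25% (5 of 20, 11.2 to 46.9), and Arf and Arl genes in 11.1% (1 of 9, 1.99 to 43.5). With 6 to 31 genes in a class, the intervals, which cover counting error only, do not separate any class from another.

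**Figure D2:**
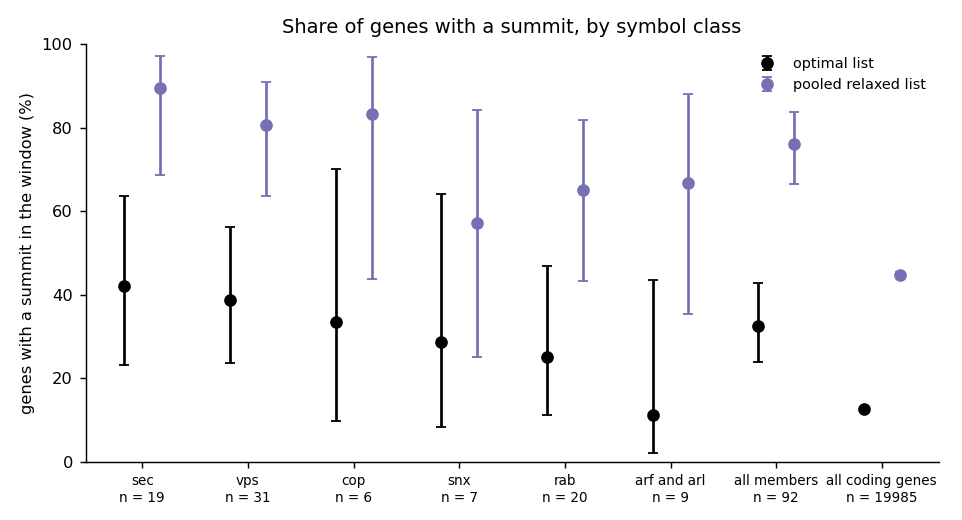
Share of genes with a summit in the promoter window, in percent, for each symbol class, all 92 members and all 19985 protein-coding genes. Black points are the optimal list, purple points the pooled relaxed list, and bars 95% Wilson intervals. In the optimal list the class shares run from 42.1% for sec genes to 11.1% for arf and arl genes, with wide bars that overlap.

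Members on each chromosome were bound at least as often as the genes around them. On the autosomes 36.2% of members were bound (29 of 80), beside 14.1% of all autosomal genes. Chromosomes I and IV had the highest shares of members bound, 47.4% (9 of 19) and 46.7% (7 of 15), beside 19.7% and 12.3% of all genes there. On X the share was 8.33% (1 of 12), beside 2.64% of all X genes. If each member had been bound at the share of all genes on its own chromosome, 14.3% of the members would have been bound, which is close to the 12.6% of all genes.

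Signals at the bound members stayed below the highest signal over all bound genes, which was 1563.7. The members had a median of 68.2, from 38.9 to 644, beside a median of 87.8 over all 2513 bound genes. Of the 30 members, 13 lay above 87.8. A signal of 100 or more was found at 12 of 30 bound members (40.0%), beside 45.3% of all bound genes. The peaks lay in intergenic DNA in 23 cases (76.7%, beside 82.5% of all bound genes), in an untranslated or other exon in 4, in an intron in 2 and in a coding exon in 1.

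Many of these summits also lay in the promoter window of another gene, as did many over all bound genes, and such peaks are called shared. The summit lay in the window of at least 1 more gene at 21 of 30 bound members (70.0%, interval 52.1 to 83.3), beside 55.0% of all bound genes. A gene on the other strand shared it at 19 of 30 (63.3%, interval 45.5 to 78.1), beside 51.9% of all bound genes. Both intervals include the share of all bound genes. The member had the nearest annotated 5′ end at 19 of 30 (63.3%), beside 70.4% of all bound genes. A summit beyond 600 bp upstream was found at 8 of 30 members (26.7%, interval 14.2 to 44.4), beside 13.8% of all bound genes. *rab-5*, *rab-7*, *rab-11.1* and *rab-30* were among these 8, with the *rab-30* summit inside its annotated gene. Median distances were -271 bp for members and -241 bp for all bound genes. Shared peaks had a median signal of 59.99 (n = 21) and unshared peaks 91.3 (n = 9). Over all bound genes the order was the other way, with 95.9 at shared peaks (n = 1383) and 81.9 at unshared ones (n = 1130). The 5 highest peaks of the members were all shared, that of *sec-61.G* only with *F32D8.13*, which lies beyond *sec-61.G* on the same strand. Counting each summit for its nearest gene only, 19 of 92 members were bound (20.7%), beside 9.02% of all genes, and 2 of these were Rab genes, *rab-5* and *rab-18*. With a window from 500 bp upstream 22 members were bound, beside 10.4% of all genes, and *rab-18* was the single Rab gene among them. The upper 50% of optimal peaks by signal gave 14 members, beside 7.42% of all genes.

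**Figure D3:**
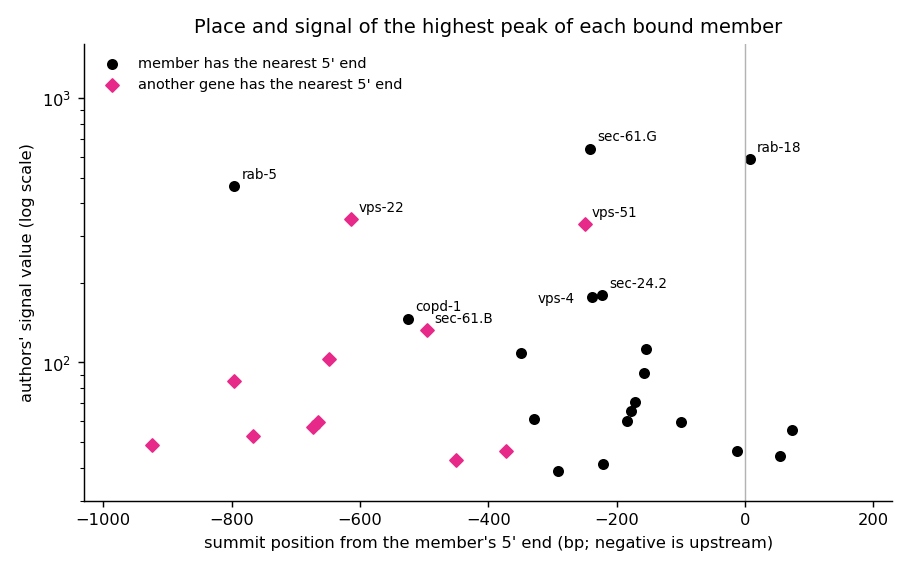
Position of the summit relative to the member's 5′ end, in bp, against the authors' signal value on a log scale, for the 30 bound members. Black circles are the 19 members with the nearest 5′ end and pink diamonds the 11 where another gene lies nearer, of which *vps-51* at -250 bp and *sec-15* at -372 bp lie closest to their 5′ ends.

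Most genes at shared peaks are named above with their member. In addition, the deadenylase gene *ccr-4* shared the peak of *sec-24.2* at -527 bp, the SUMO activating gene *uba-2* that of *vps-25* at -301 bp, and *sdz-1* that of *vps-33.1* at -404 bp. No 2 members shared a peak.

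The replicates placed most of these peaks among their strongest regions. All 30 bound members had a summit in the window in both replicates' own lists. The 2498 highest regions of each replicate, as many as the optimal list holds, are called its top regions here. Top regions of both replicates overlapped the peak at 25 of 30 members (83.3%, beside 78.7% of all bound genes), at 4 only those of replicate 2 did, and at *vps-15* only those of replicate 1. The 4 were *arf-5*, *rab-30*, *sec-15* and *snx-13*. Counted over all members, 25 of 92 had an optimal peak of that kind, beside 9.91% of all genes. Because the optimal list draws on these same replicates, such sharing is partly built in. Taken alone, the top regions of replicate 1 gave 28 bound members (30.4%, beside 11.8% of all genes) and those of replicate 2 gave 30 (32.6%, beside 12.3%). A top summit of each replicate lay in the window at 25 members (27.2%, beside 9.99%). Of the optimal peaks at bound members, 26 were overlapped by top regions of replicate 1 (86.7%, beside 83.8% of all bound genes) and 29 by those of replicate 2 (96.7%, beside 93.3%). Members with a top summit that were not bound were *rab-1* and *snx-1* in replicate 1 and *copb-2* in replicate 2.

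**Figure D4:**
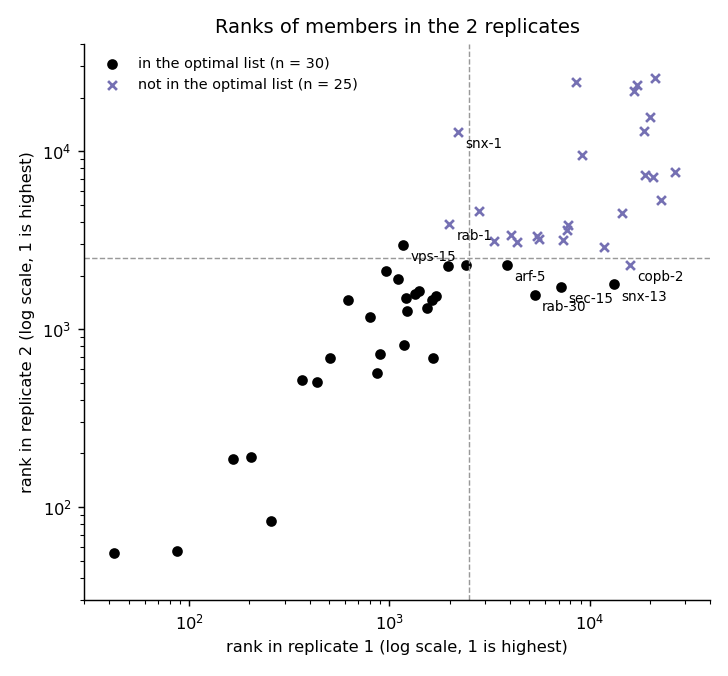
Rank of the highest region in the window in replicate 1 and in replicate 2, both on log scales with 1 the highest, for the members with a summit in both replicates. Black circles are the 30 bound members, crosses 25 members outside the optimal list, and dashed lines mark rank 2498. Of the 30, *arf-5*, *rab-30*, *sec-15* and *snx-13* lie right of the vertical line and *vps-15* lies above the horizontal one.

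Below the optimal list, further members had weaker regions. In the pooled relaxed list, 70 of 92 members had a summit in the window (76.1%, interval 66.4 to 83.7), beside 44.7% of all genes, so 40 members, or 43.5%, had only a pooled region below the optimal list, beside 32.1% of all genes. The replicate lists held 67 (72.8%, beside 45.3%) and 68 (73.9%, beside 44.4%) in replicates 1 and 2. In replicate 1 the sec genes had a summit in 10 of 19 cases and the Rab genes in 17 of 20, and in replicate 2 these counts were 17 of 19 and 12 of 20. These relaxed lists had a fixed length of 30000 regions and hold background as well as peaks.

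The highest of the 40 was *arl-13*, with a pooled signal of 32.4 at rank 2708, and the lowest bound member, *arf-5*, had rank 2237. Signals of the 40 had a median of 14.3, beside 11.5 over all 6413 genes whose pooled summit lay below the optimal list. An E2F core was this close to the pooled summit at 2 of the 40 (5%), beside 6.14% of all genes with such a summit. Of the 40, 25 had a summit in both replicates' lists, 10 in that of replicate 2 alone, 4 in that of replicate 1 alone and 1 in neither. At the edge of the window, *rab-30* was just inside at -924 bp, while the nearest optimal summit lay at -1016 bp for *sec-31* and at 208 bp downstream for *arf-1*. In all, 11 members had no summit in the window in any of the 4 lists, namely *rab-11.2*, *rab-33*, *arl-3*, *vps-13*, *vps-34*, *vps-41*, *vps-52*, *vps-54*, *sec-6*, *cope-1* and *snx-14*.

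Paralogous pairs within the set fell on the same or on different sides of the call. Both *sec-24.1* and *sec-24.2* were bound, while neither *sec-16A.1* nor *sec-16A.2* and neither *rab-6.1* nor *rab-6.2* was. *rab-11.1* was bound and *rab-11.2* had no summit in any list. *vps-33.1* was bound at rank 1493, and *vps-33.2* had a pooled rank of 7709. How reads from near-identical sequence were placed is not stated, so values are uncertain where the windows of a pair are alike. That likeness was not measured.

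Other genes of membrane traffic, listed under different symbols, were bound in 34 of 119 cases (28.6%, interval 21.2 to 37.3), beside the same 12.6% of all genes. Genes of clathrin, its adaptors and endocytosis had the highest share, 13 of 23 (56.5%). The highest there were *rme-1* (374), which encodes a recycling ATPase of the EHD family, *clic-1* (181) for clathrin light chain and *chc-1* (151) for clathrin heavy chain, and *apa-2* and *apb-3* were unbound. No E2F core was found that close to the summit at any of these 13 genes. A group of coat, ESCRT and small GTPase genes was bound in 5 of 13 cases, with *mvb-12* (165), *tfg-1* (93.8) and *copg-1* (80.0), which encodes the gamma subunit of COPI, highest, and *aex-6* and *alx-1* unbound. The summits at *mvb-12*, at -817 bp, and *tfg-1*, at -509 bp, lay nearer to another gene. Of the ESCRT genes in this group, *mvb-12* and *hgrs-1* were bound, the summit nearer to another gene at both, and *stam-1*, *alx-1* and *did-2* were not. These ESCRT genes were singled out after their values were seen.

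The remaining lists had shares nearer to those of all genes. SNAREs and fusion factors were bound in 6 of 29 cases (20.7%), led by *vamp-7* (150), *nbet-1* (108.4) and *memb-2* (66.4), with *aex-4* and *gos-28* unbound. Rab and Arf regulators were bound in 7 of 35 cases, led by *rbg-2* (163), *glo-4* (124) and *rbg-3* (95.9), with *agef-1* and *cnt-2* unbound. Tethers such as the COG and TRAPP complexes were bound in 3 of 19 cases (15.8%), namely *cogc-2* (862, nearer to another gene), *trpp-10* (123) and *cogc-6* (55.9), with *cogc-1* and *cogc-3* unbound. An E2F core was that close to the summit at *vamp-7*, *glo-4*, *rbg-2* and *cogc-2*.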

How the data were processed

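The authors deposited peak lists in the narrowPeak format. Per the description deposited with each sample, a relaxed list of peaks and background was made for each replicate and for both pooled, against a control, and the optimal list keeps pooled peaks that pass an irreproducible discovery rate threshold. Column 7 of the deposited lists holds the authors' signal value per region, whose scale is not stated. No aligner, peak caller or threshold is given in the sources used here. The optimal list equalled the 2498 pooled regions of highest signal and was ranked by that signal. Read totals were not used here, so depth is unknown.

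Positions are in ce11, counted from 1. The ce10 lists were not used here. Genes came from Ensembl release 115 (WBcel235), and bases from RefSeq's WBcel235. A summit was column 2 plus column 10, and a gene took the summit of highest signal in its window, so a summit could serve several genes. Many worm transcripts are trans-spliced or come from operons, so an annotated 5′ end need not be where transcription starts. Overlap of regions required 1 bp. Shares carry 95% Wilson intervals for counting error only, and no test was made. Summit assignment was tested on simulated positions. Python 3.11.15, pandas 2.3.3 and scipy 1.17.1 were used.

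The members, the 5 lists of other traffic genes and the groups by complex were chosen with earlier results of these data known. Of the 124 names in those lists, 119 matched a symbol. All members are named. Signals in each list are given for up to 5 bound members of each class, those with the highest signal, and the optimal signal for the rest. Replicate ranks of other members were chosen after their values were seen. Of each other list, up to 3 bound genes with the highest signal and 2 unbound genes first in the alphabet are named. Further genes of the ESCRT, COPII and exocyst complexes in those lists were named after their values were seen. The alternatives were other windows, the nearest gene, whole peaks, stricter and relaxed lists, and each replicate alone.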

Additional observations from a re-analysis of the deposited data

How the results depend on the processing

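The count of 30 bound members stayed within 1.5 times under 6 of 9 alternatives. It was 19 with the nearest gene only, 14 with the upper 50% of optimal peaks and 70 with any pooled region. Leaving out either replicate gave 28 to 30, of which 26 to 29 were among the 30 of the main count. The 2000 bp window gave 41, beside 15.3% of all genes, and whole peaks gave 33, beside 13.2%. Over all genes the share was 10.4% with the window from 500 bp and 9.02% with the nearest gene. It was 7.42% with the upper 50% and 44.7% with any pooled region. Optimal peaks that both replicates hold as top regions gave 9.91%, and leaving out replicate 1 or 2 gave 12.3% or 11.8%. Rab genes, 5 in all, numbered 1 with the window from 500 bp, 8 with that from 2000 bp, 2 with the nearest gene, 3 with the upper 50% and 13 with any pooled region. The Rab share was thus 5% with the window from 500 bp, below that of all genes, and 10% with the nearest gene, close to it. Rab genes numbered 5 with either replicate left out, but without replicate 2 *rab-1* took the place of *rab-30*. Arf and Arl genes, 1 in all, numbered 3 with the 2000 bp window, 2 with whole peaks, 0 with the upper 50% and with optimal peaks that both replicates hold as top regions, 6 with any pooled region, and 0 to 1 with a replicate left out, the 0 being without replicate 2. The 12 vps genes became 7, 6 and 25 and the 8 sec genes 5, 4 and 17 with the nearest gene, the upper 50% and any pooled region, and 11 to 12 and 7 to 8 with a replicate left out. The 2 cop genes became 1 with the 500 bp window, 1 with the upper 50% and 5 with any pooled region, and 2 to 3 with a replicate left out. The 2 snx genes became 0 with the upper 50%, 1 with optimal peaks that both replicates hold as top regions and 4 with any pooled region. They numbered 2 with either replicate left out, but without replicate 2 *snx-1* took the place of *snx-13*. The stricter and relaxed lists change these counts by construction, since they hold fewer or more regions, and the narrower rules by accepting fewer summits. The 8 genes lost with the 500 bp window were *copd-1*, *rab-5*, *rab-7*, *rab-11.1*, *rab-30*, *vps-18*, *vps-22* and *vps-32.1*. No paired analysis was possible because the series has a single group. Depth was unknown, so absence of a peak cannot be told from a peak too weak for these libraries.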

Other observations

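Several unbound members had an optimal summit near but outside their window. The signals ran from 35.4 to 514, beside a median of 71.1 over all optimal peaks. The summit at -1016 bp from *sec-31*, with a signal of 514, was in the window of *cbd-1*, and the summit at -1520 bp from *vps-53*, with a signal of 374, was in that of *rmd-1*. The nearest optimal summits of *vps-35*, *copb-1*, *rab-33*, *vps-16*, *rab-21*, *rab-19*, *arl-13* and *sec-6* lay from -1137 to -1878 bp, with signals from 41.9 to 107, and each lay in the window of at least 1 other gene. The summit downstream of the *arf-1* 5′ end had a signal of 35.4 and lay in no gene's window. These genes were chosen by distance after their values were seen.

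A further 11 unbound members had a summit in the list of a single replicate and none in the pooled list. Replicate 1 held *rab-3*, *rab-10*, *rab-21*, *rab-28*, *rab-37*, *arl-6*, *snx-27* and *vps-45*, at ranks from 5700 to 28910, and replicate 2 held *arl-5*, *sec-20* and *snx-17*, at ranks from 9914 to 29110. *rab-37*, at rank 5700 with a signal of 8.08, was the highest of these.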
